A study of Rattus norvegicus with 6 samples.

Results

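The genes described here encode the proteins of the mitochondrial ribosome, measured in neurospheres grown from the adult rat carotid body. They were taken as every gene whose platform symbol starts with Mrpl or Mrps and a digit and that has a probe set with exactly 1 gene symbol. Of the 14506 genes of the array table so named, 68 were members, 41 of the large subunit (Mrpl) and 27 of the small subunit (Mrps). They had 72 probe sets, and where a gene had several, the brightest on average stood for it. A further probe set carried the symbols of both Mrpl20 and Ankrd65 and was not used, so Mrpl20 is not among the 68. Mrpl9, Mrpl11, Mrpl20, Mrpl24, Mrpl28, Mrpl33, Mrpl39, Mrpl58, Mrps6 and Mrps36 were not analysed here.

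Neurospheres are floating clusters of cultured cells, here from dispersed cells of the carotid body, a small organ beside the carotid artery that senses blood oxygen. Total RNA was measured on 6 Affymetrix arrays, 3 labelled differentiated and 3 labelled undifferentiated. Per the labels, the differentiated spheres were kept in neural crest medium that lacked mitogens, at 3% oxygen, and the undifferentiated spheres in the complete medium with FGF, IGF-1, EGF and ET-1 in normal oxygen. Dispersed cells of both groups formed spheres over 10 days in low-attachment plates, and the age (beyond adult), sex and strain of the rats and the number pooled are not stated. Mitogens and oxygen differed together, so their effects cannot be told apart. The series asks which pathways distinguish spheres rich in neuronal cells from spheres rich in undifferentiated cells.

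The mitochondrial ribosome is built from ribosomal RNAs encoded in mitochondrial DNA and from proteins encoded in the nucleus, made in the cytosol and imported. It translates the few messenger RNAs of mitochondrial DNA that encode protein, and all of these proteins are subunits of the respiratory chain or the ATP synthase. Some of its proteins have counterparts in bacterial ribosomes, while others are found only in mitochondria and enlarge the particle on its surface. The oxygen-sensing glomus cells of the carotid body are rich in mitochondria, and their respiratory chain takes part in oxygen sensing.

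The labels were checked first. Th, which carries out the first step of catecholamine synthesis and marks glomus cells, had log2 signals of 10.73, 11.32 and 10.65 in the arrays labelled differentiated, against 13.76, 13.59 and 13.91 in those labelled undifferentiated. The difference was -2.86 ± 0.18 (SE, limma adjusted p = 5.09e-07), which goes against the labels, so each direction below is that of the libraries labelled differentiated relative to the libraries labelled undifferentiated. Targets of the hypoxia-inducible factors, which low oxygen is known to raise, were read against the oxygen label. Of 19 measured genes of a list of 20, 1 was higher and 15 were lower in the arrays labelled differentiated, with a median difference of -0.83. Adm, the adrenomedullin gene, measured 8.06, 8.87 and 8.08 in the differentiated arrays, against 12.13, 12.10 and 12.42 in the undifferentiated arrays. These genes lay opposite to the 3% oxygen that the labels give for the differentiated spheres, so the oxygen of either group is known from its label only.

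All 18 measured genes of a list of 20 glomus cell markers were lower in the differentiated arrays, while 14 of 16 mesenchymal markers (1 lower, Thy1) and 16 of 17 measured mitosis genes (0 lower) were higher. The log2 of the glomus list's summed linear signal lay at 12.16 to 12.67 in the differentiated and 15.07 to 15.23 in the undifferentiated arrays. For the mesenchymal list it lay at 15.67 to 15.75 in the differentiated and 14.63 to 15.04 in the undifferentiated arrays, and for the mitosis list at 10.47 to 10.67 in the differentiated and 9.43 to 9.55 in the undifferentiated arrays. The sums of glial, endothelial and macrophage markers overlapped between the groups. Of 10 glial genes 3 were higher and 1 lower, of 11 endothelial 2 and 2, and of 12 macrophage 2 and 3. Of 4 erythroid genes, 0 passed. Some markers were dim, with mean signals under 4.44. Among them were Emcn (3.47), Kdr (3.62), Pecam1 (3.95) and Cdh5 (3.97) of the endothelial, Alas2 (3.65) of the erythroid and Fabp7 (3.73) of the glial list. Whether such dim markers were present was not tested. The glomus, mesenchymal and mitosis lists moved along with the condition, and their part in the results below was not tested. In such bulk RNA, fewer cells of a type and less RNA per cell cannot be told apart.

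Transcripts of the mitochondrial ribosome differed little between the groups. Of the 68 members, 7 were higher and 1 was lower in the arrays labelled differentiated (limma adjusted p under 0.05), which is 11.8% of the members against 29.5% of all genes. In each direction taken alone, 14.7% of all genes were higher and 14.9% lower. The 7 that rose were Mrpl43, Mrpl23, Mrpl21, Mrpl37 and Mrpl36 of the large subunit and Mrps25 and Mrps26 of the small subunit, by 1.29-fold (Mrps26) to 1.51-fold (Mrpl43), and the 1 that fell was Mrpl51. The median difference was 0.14 log2 units in the large subunit and 0.13 in the small subunit, beside 0.06 over all genes. Quantile normalization gave medians of 0.15 and 0.18, and median centring 0.11 and 0.11, both beside 0.03 over all genes.

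The smallness of the differences is seen in their size as well as in the calls. No member differed by 1 log2 unit or more, as 8.01% of all genes did, and 2 members, 2.94%, differed by at least 0.5, as 22.5% of all genes did. The 95% interval of every member lay between -1 and 1, and that of 49 of 68 members lay between -0.5 and 0.5. The members' replicates were as close as those of other genes, with a median residual SD of 0.16 in both. The difference was positive in 53 members and negative in 15, that is positive in 77.9% of members and 57.6% of all genes. The plot of all differences shows this narrow band, shifted slightly to the positive side in both subunits.

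**Figure D1:**
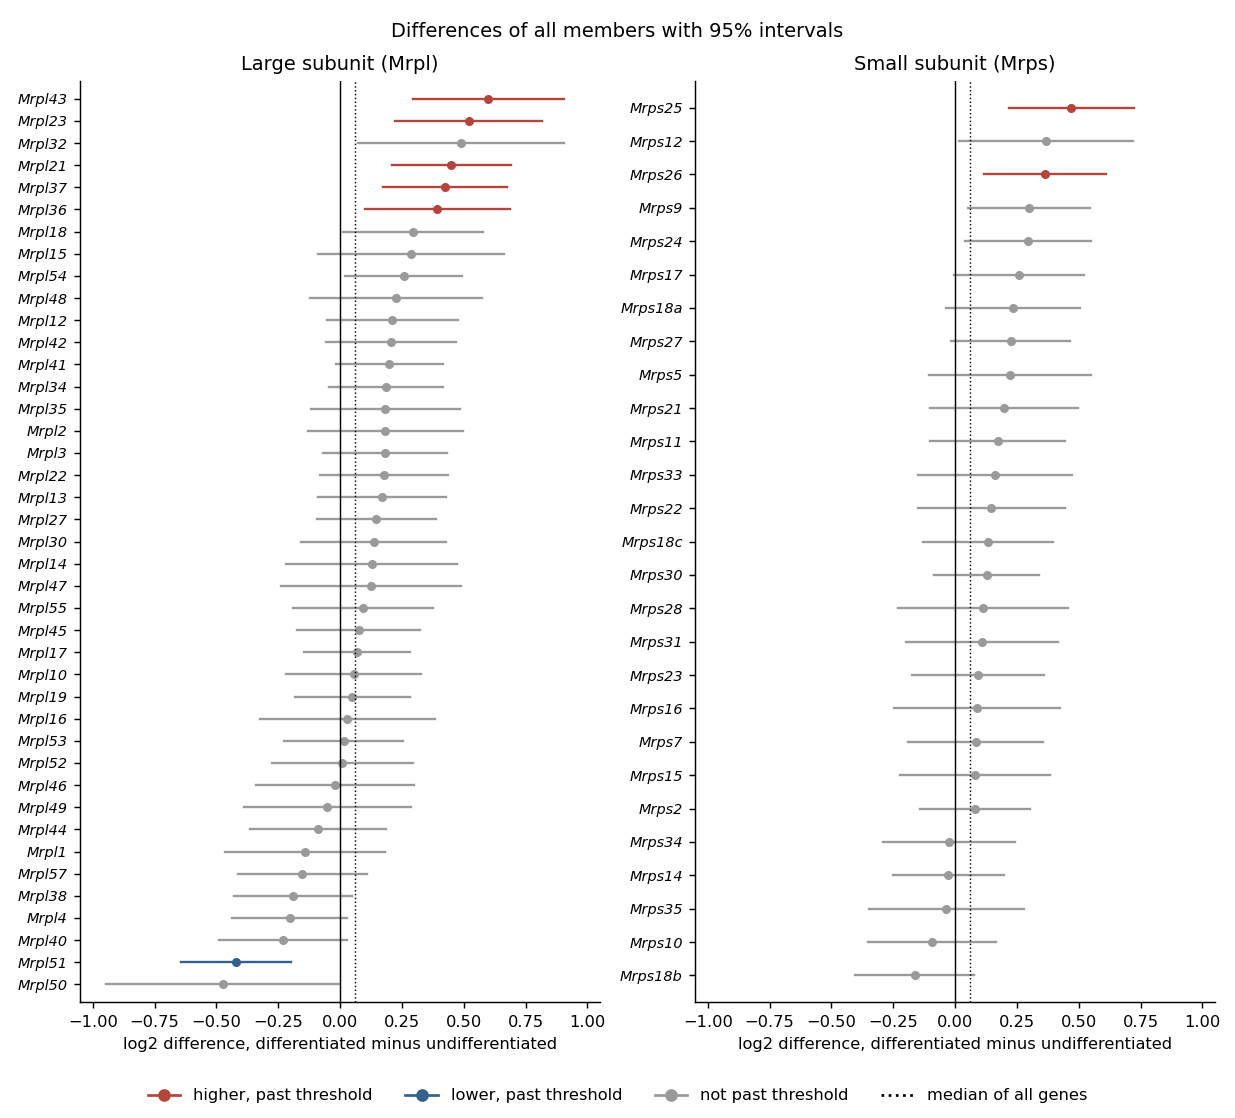
Log2 difference, arrays labelled differentiated minus arrays labelled undifferentiated (x axis), of each member gene (y axis), with its 95% interval as a line, for the 41 genes of the large and the 27 of the small subunit. Red marks the 7 genes called higher and blue the 1 called lower; every interval stays between -1 and 1, and the dotted line is the median of all genes at 0.06.

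Among the large subunit proteins, Mrpl43 showed the largest rise. It encodes a protein of the large subunit found only in mitochondria (probe set 10730391). Its log2 signals were 6.39, 6.88 and 6.53 in the arrays labelled differentiated, against 5.92, 5.99 and 6.10 in those labelled undifferentiated. The groups did not overlap, and the difference of 0.60 ± 0.14 (SE, 1.51-fold, limma adjusted p = 0.00655) ran from 0.46 to 0.70 when each array was left out.

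Mrpl23 (probe set 10712501) is the counterpart of the bacterial protein L23, which lies at the exit of the tunnel through which the new protein leaves the ribosome. It measured 7.68, 7.82 and 7.64 in the arrays labelled differentiated, against 7.44, 6.90 and 7.23 in those labelled undifferentiated. The lowest of these values came from undifferentiated replicate 2. The rise was 0.52 ± 0.13 (limma adjusted p = 0.0128), and 0.38 without that array (adjusted p = 0.0418).

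Mrpl21 (probe set 10712648), the counterpart of bacterial L21, measured 7.94, 8.21 and 7.92 in the arrays labelled differentiated, against 7.63, 7.47 and 7.63 in those labelled undifferentiated. It rose by 0.45 ± 0.11 (limma adjusted p = 0.00907), and the groups did not overlap. Mrpl37 (probe set 10878521), a mitochondria-specific protein, measured 7.18, 7.13 and 7.28 in the differentiated arrays, against 6.93, 6.60 and 6.79 in the undifferentiated arrays. It rose by 0.43 ± 0.11 (limma adjusted p = 0.015), and its call was lost without differentiated replicate 3 (0.38, adjusted p = 0.0588) and without undifferentiated replicate 2 (0.34, adjusted p = 0.0574).

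Mrpl36 (probe set 10796835) encodes one of the smallest ribosomal proteins, the counterpart of bacterial L36. Its signals were 7.02, 7.55 and 7.38 in the arrays labelled differentiated, against 6.90, 6.91 and 6.96 in those labelled undifferentiated. The groups did not overlap, but replicate 1 of the differentiated arrays lay close to the undifferentiated ones. The rise of 0.39 ± 0.13 (limma adjusted p = 0.0466) stayed past the threshold in 1 of the 6 fits with an array left out, that without differentiated replicate 1 (0.54, adjusted p = 0.00543). In the other fits the adjusted p ran from 0.092 without undifferentiated replicate 3, through 0.11 without undifferentiated replicate 2, 0.114 without undifferentiated replicate 1 and 0.129 without differentiated replicate 3, to 0.154 without differentiated replicate 2. With all arrays it was 0.0635 after median centring and 0.0737 in eBayes without the mean-variance trend.

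Mrpl51 (probe set 10858854), a mitochondria-specific protein of the large subunit, was the only member called lower in the fit of all 6 arrays. It measured 8.08, 7.94 and 7.80 in the arrays labelled differentiated, against 8.35, 8.30 and 8.42 in those labelled undifferentiated. The groups did not overlap. It fell by 0.42 ± 0.10 (limma adjusted p = 0.00852) and remained called when each array was left out, with differences of -0.49 to -0.35. Mrpl50, another mitochondria-specific protein, had the largest negative difference, -0.47 ± 0.21 (adjusted p = 0.131), and did not pass. Its signals were 5.50, 4.65 and 5.43 in the arrays labelled differentiated, against 5.58, 5.51 and 5.91 in those labelled undifferentiated, and differentiated replicate 2 lay well below the other arrays.

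In the small subunit, Mrps25 and Mrps26 rose, both mitochondria-specific proteins. Mrps25 (probe set 10864153) measured 6.77, 6.79 and 6.61 in the arrays labelled differentiated, against 6.35, 6.10 and 6.31 in those labelled undifferentiated, a rise of 0.47 ± 0.11 (limma adjusted p = 0.00917) that kept its call when each array was left out. Mrps26 (probe set 10839947) measured 7.26, 7.56 and 7.34 in the differentiated arrays, against 7.08, 6.91 and 7.08 in the undifferentiated arrays, a rise of 0.36 ± 0.11 (adjusted p = 0.0305). The call of Mrps26 was less stable. Its difference was smaller without differentiated replicate 2 (0.28, adjusted p = 0.106) and without undifferentiated replicate 2 (0.31, 0.103). The call was also lost with a difference no smaller than 0.36 without differentiated replicate 3 (0.39, 0.0569), undifferentiated replicate 1 (0.39, 0.0587) or undifferentiated replicate 3 (0.39, 0.0564), and in eBayes without the trend (0.0534). With median centring it was 0.33 (0.0566). No small subunit gene was called lower, and 1 of the 27 had a difference below -0.1, Mrps18b.

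**Figure D2:**
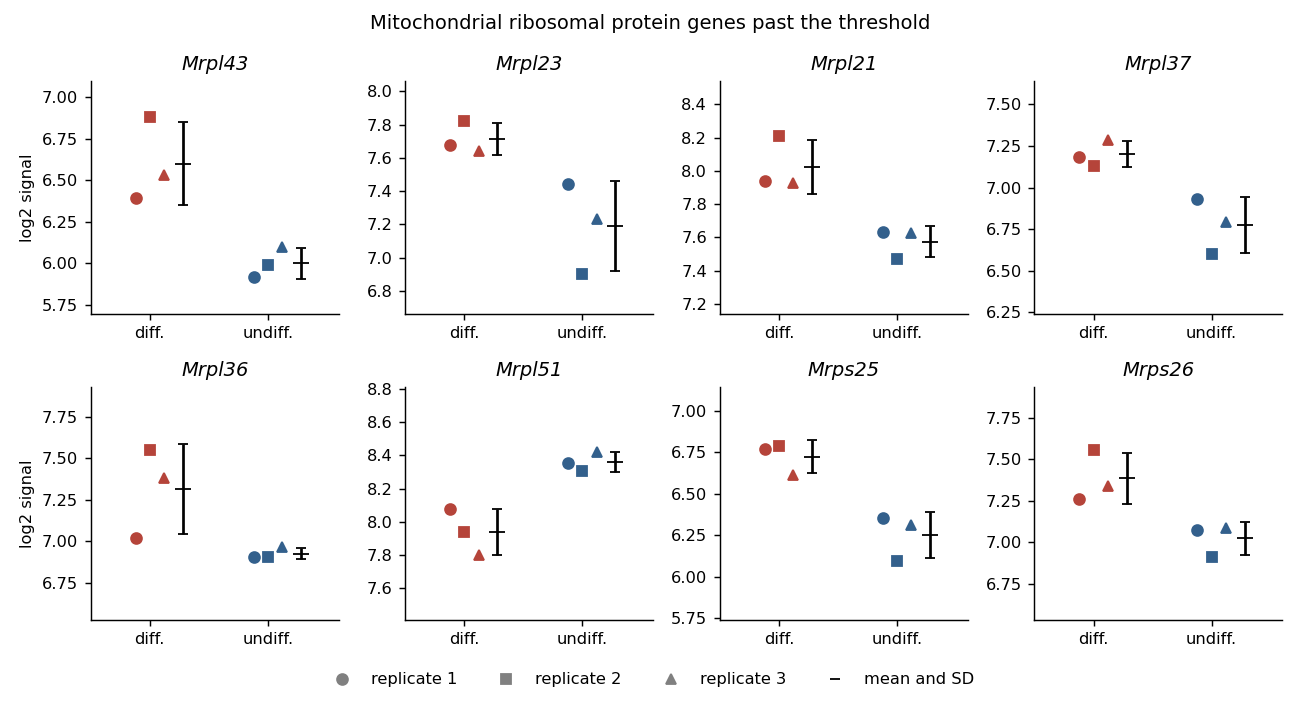
Log2 signal (y axis) of the 8 members past the threshold in the 3 arrays labelled differentiated (left, red) and the 3 labelled undifferentiated (right, blue), with mean and SD as bars; each panel spans 1.4 log2 units. In none of the 8 do the groups overlap, and in Mrpl36 the lowest differentiated value, 7.02, lies just above the highest undifferentiated value, 6.96.

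Groups that do not overlap were no more frequent among the members than elsewhere. They were found in 21 of 68 members (30.9%), 17 higher and 4 lower, against 42.3% of all genes, 22.5% higher and 19.8% lower. Besides the 8 called members these included Mrps9, Mrpl32, Mrpl54 and Mrps27 on the higher side and Mrpl38, Mrpl4 and Mrpl50 on the lower side. Mrps9, the counterpart of bacterial S9, measured 6.44, 6.63 and 6.39 in the arrays labelled differentiated, against 6.15, 6.16 and 6.26 in those labelled undifferentiated (0.30 ± 0.11, limma adjusted p = 0.0673). Its adjusted p was 0.0426 with quantile normalization and 0.0493 once dim genes had been dropped. Without adjustment, 15 members (22.1%) had p under 0.05, against 38% of all genes.

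In the parts of the ribosome that make the peptide bond and read the codon, most of the members followed here did not pass. Of the proteins whose bacterial counterparts line the peptidyl transferase centre or the exit tunnel, Mrpl2 differed by 0.18, Mrpl3 by 0.18, Mrpl4 by -0.20, Mrpl16 by 0.03, Mrpl22 by 0.18 and Mrpl27 by 0.15, with limma adjusted p between 0.187 and 0.919. Mrpl23, described above, was the only one of this kind called. In the stalk, where translation factors bind, Mrpl10, its base, differed by 0.06 (95% interval -0.22 to 0.33) and Mrpl12, which in human cells also binds the mitochondrial RNA polymerase, by 0.21 (-0.05 to 0.47). Mrps12, the counterpart of the bacterial decoding protein S12, measured 6.99, 7.43 and 6.78 in the arrays labelled differentiated, against 6.74, 6.53 and 6.84 in those labelled undifferentiated. The groups overlapped, and the difference of 0.37 ± 0.16 did not pass (adjusted p = 0.115), although it did without differentiated replicate 3 (0.51, adjusted p = 0.0386).

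Other members with a known special role did not pass the test either. Mrpl45, which in human mitochondria fixes the ribosome to the inner membrane, differed by 0.07 (95% interval -0.18 to 0.32). Mrpl44, with a fold like that of ribonuclease III, differed by -0.09 (-0.36 to 0.18), and Mrps27, a protein with pentatricopeptide repeats, by 0.22 (-0.02 to 0.47). Mrpl32, which in yeast and mouse must be cut by a mitochondrial protease before it enters the ribosome, had the dimmest signal of the members, with 5.05, 5.21 and 5.23 in the arrays labelled differentiated, against 4.84, 4.22 and 4.97 in those labelled undifferentiated. Its difference of 0.49 ± 0.19 did not pass (limma adjusted p = 0.0782), and undifferentiated replicate 2 was far below the others. It passed without undifferentiated replicate 3 (0.64, adjusted p = 0.0424), and was 0.26 without undifferentiated replicate 2 (adjusted p = 0.231).

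Mammals have 3 versions of the bacterial protein S18, encoded by Mrps18a, Mrps18b and Mrps18c, of which the product of Mrps18c sits at the bacterial position in the small subunit, that of Mrps18b elsewhere in the small subunit, and that of Mrps18a in the large subunit. Mrps18a measured 7.11, 7.22 and 7.12 in the arrays labelled differentiated, against 7.08, 6.67 and 7.00 in those labelled undifferentiated (0.23 ± 0.12, limma adjusted p = 0.192). Mrps18b measured 7.43, 7.33 and 7.12 in the differentiated arrays, against 7.54, 7.39 and 7.44 in the undifferentiated arrays (-0.16 ± 0.11, adjusted p = 0.317). Mrps18c measured 7.63, 7.86 and 7.52 in the differentiated arrays, against 7.61, 7.37 and 7.63 in the undifferentiated arrays (0.13 ± 0.12, adjusted p = 0.464). None of the 3 passed, and the groups were apart in Mrps18a alone. Mrps30, named for the small subunit but placed in the large one, differed by 0.13 ± 0.10 (adjusted p = 0.379).

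The members were also divided by the origin of the protein. Of 24 proteins of the large particle with a bacterial counterpart, 3 rose, 0 fell and 22 had a positive difference, with a median of 0.17. Of the 19 mitochondria-specific proteins of the large particle, counting Mrps30 and Mrps18a, whose place there has no bacterial counterpart, 2 rose, 1 fell and 11 had a positive difference, with a median of 0.01. In the small particle, 0 of 15 proteins with a bacterial counterpart and 2 of 10 mitochondria-specific proteins rose, with medians of 0.13 in both. In the same order, the shares called were 12.5%, 15.8%, 0% and 20%, against 29.5% of all genes. The shares with a positive difference were 91.7%, 57.9%, 86.7% and 70%, against 57.6% of all genes. Whether the classes differ was not tested.

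The signals of the members lay between a mean of 4.92 (Mrpl32) and 8.27 (Mrpl52), and all 68 lay above 4.44, the 40th percentile of probe set means. These are log2 signals of different probe sets, which do not give the order of transcript amounts. Mrpl52 and Mrpl17, with the brightest probe sets of the large subunit, differed by 0.01 (95% interval -0.27 to 0.29) and 0.07 (-0.15 to 0.28). Mrps18c and Mrps24 were the brightest of the small subunit. Mrps24 differed by 0.29 (0.04 to 0.55) and did not pass (limma adjusted p = 0.082). The dimmest of the large subunit after Mrpl32 was Mrpl1, with a difference of -0.14, and the dimmest of the small subunit were Mrps28, with 0.11, and Mrps35, with -0.03.

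Mrpl40, Mrpl41, Mrpl42 and Mrps11 each had 2 probe sets. The sign was the same within each pair, and the differences of the 2 probe sets were -0.23 and -0.22 for Mrpl40, 0.20 and 0.20 for Mrpl41, and 0.17 and 0.25 for Mrps11. Mrpl42 was divided in its calls. Its brighter probe set measured 7.92, 7.86 and 7.52 in the arrays labelled differentiated, against 7.57, 7.50 and 7.61 in those labelled undifferentiated (0.21 ± 0.12, limma adjusted p = 0.239 over all probe sets). The dimmer probe set measured 6.27, 6.33 and 6.13 in the differentiated arrays, against 5.87, 5.50 and 6.01 in the undifferentiated arrays (0.45 ± 0.15, adjusted p = 0.0374). Named pseudogenes of 22 members, among them Mrpl23, Mrpl37 and Mrps25, are listed in the rat gene table of GRCr8, and their transcripts could share probes with the parent gene.

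The arrays of a group were not alike in these genes. After each gene was set to its own mean, the median deviation of the 68 members was 0.06, 0.18 and -0.004 in differentiated replicates 1, 2 and 3, against -0.03, -0.17 and 0.04 in undifferentiated replicates 1, 2 and 3. Differentiated replicate 2 and undifferentiated replicate 2 thus lay farthest apart, while differentiated replicate 3 lay below undifferentiated replicate 3. Of the 3 arrays labelled differentiated, replicate 2 was the highest in 44 of 68 members, a larger share than the 37.7% of all genes. Of the 3 labelled undifferentiated, replicate 2 was the lowest in 49 of 68 members, again a larger share than the 39.4% of all genes. Without differentiated replicate 2 the median difference was 0.06 in the large and 0.09 in the small subunit, beside 0.05 over all genes. Without undifferentiated replicate 2 it was 0.07 and 0.05, beside 0.07 over all genes, so that in this fit the members were not shifted above all genes. The members called higher numbered 4 without undifferentiated replicate 2, namely Mrpl43, Mrpl23, Mrpl21 and Mrps25.

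**Figure D3:**
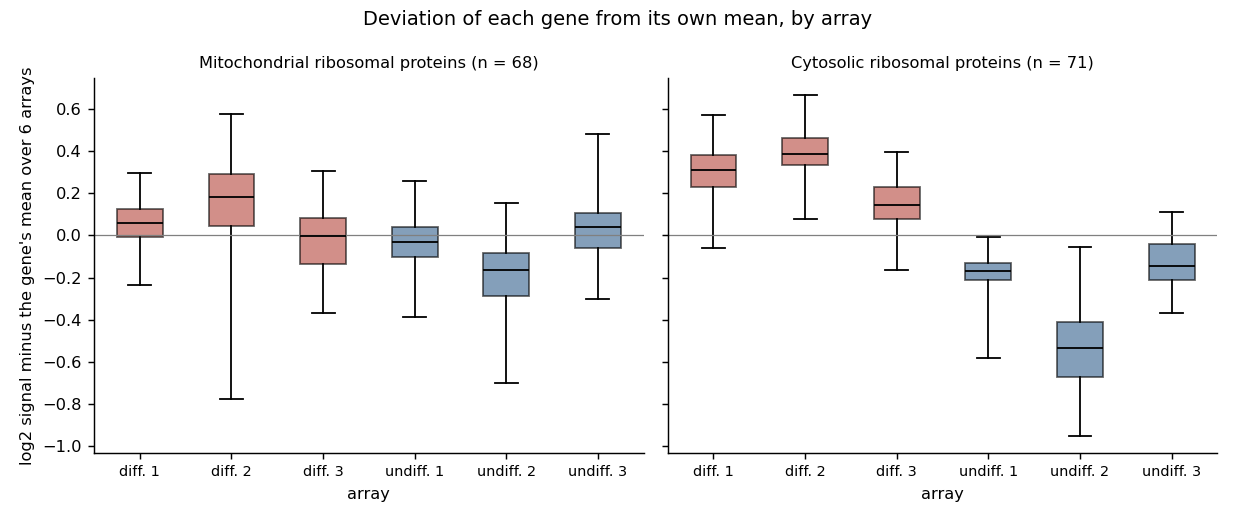
Log2 signal of each gene minus its own mean over the 6 arrays (y axis), by array (x axis; labelled differentiated in red, undifferentiated in blue), for 68 mitochondrial and 71 cytosolic ribosomal protein genes; boxes give quartiles and median, whiskers the full range. The mitochondrial medians run from -0.17 to 0.18 with the groups overlapping, and the cytosolic medians lie at 0.15 to 0.39 in the differentiated and at -0.54 to -0.15 in the undifferentiated arrays.

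The proteins of the cytosolic ribosome, which translates all nuclear messenger RNAs, gave other values. Of 71 measured Rpl and Rps genes, 63 rose and 0 fell (limma adjusted p under 0.05). The share called was 88.7%, against 29.5% of all genes. Their median difference was 0.57, with a range of 0.20 to 0.94. The counts higher ran from 47 to 67 over the alternatives other than a stricter threshold (40) and a test without moderation (15). The genes with the smallest p were Rps12 (0.94 ± 0.16, adjusted p = 0.000883), Rps4y2 (0.71 ± 0.12) and Rpl37l1 (0.67 ± 0.12), and such genes have many near-identical copies that can share probes. The median deviations were 0.31, 0.39 and 0.15 in differentiated replicates 1, 2 and 3, against -0.17, -0.54 and -0.15 in undifferentiated replicates 1, 2 and 3, and here the groups did not overlap. The highest of the 68 mitochondrial differences, 0.60, was close to the cytosolic median. No test was made between the families.

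Respiratory chain and ATP synthase subunits, the machinery that holds the products of mitochondrial translation, mostly did not pass. Of 69 listed nuclear-encoded genes 6 rose, 6 fell and 57 were not called, with a median of 0.03. The share called was 17.4%, against 29.5% of all genes. Cox8c, among those that rose, was dim, with a mean signal of 3.09. With quantile normalization 10 rose and 6 fell, and with median centring 2 rose and 6 fell. With an array left out, 2 to 4 rose, and the number that fell was 6 without replicate 2 of either group, 3 without replicate 1 of either and 2 without replicate 3 of either. Ndufa1, an accessory subunit of complex I, fell by 0.96 ± 0.13 (limma adjusted p = 0.000146). Its log2 signals were 6.62, 6.58 and 6.87 in the differentiated arrays, against 7.76, 7.44 and 7.76 in the undifferentiated arrays. Ndufa4, now counted as a subunit of cytochrome oxidase, rose by 0.52 ± 0.11, and Cox5a of the same complex by 0.49 ± 0.11. Ndufa10 fell by 0.83 ± 0.18 (adjusted p = 0.0045). Cox4i2, a subunit gene left out of this list and counted with the glomus markers, fell by 3.50 ± 0.14 (adjusted p = 4.93e-08). The plot of differences by list sets these families side by side.

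**Figure D4:**
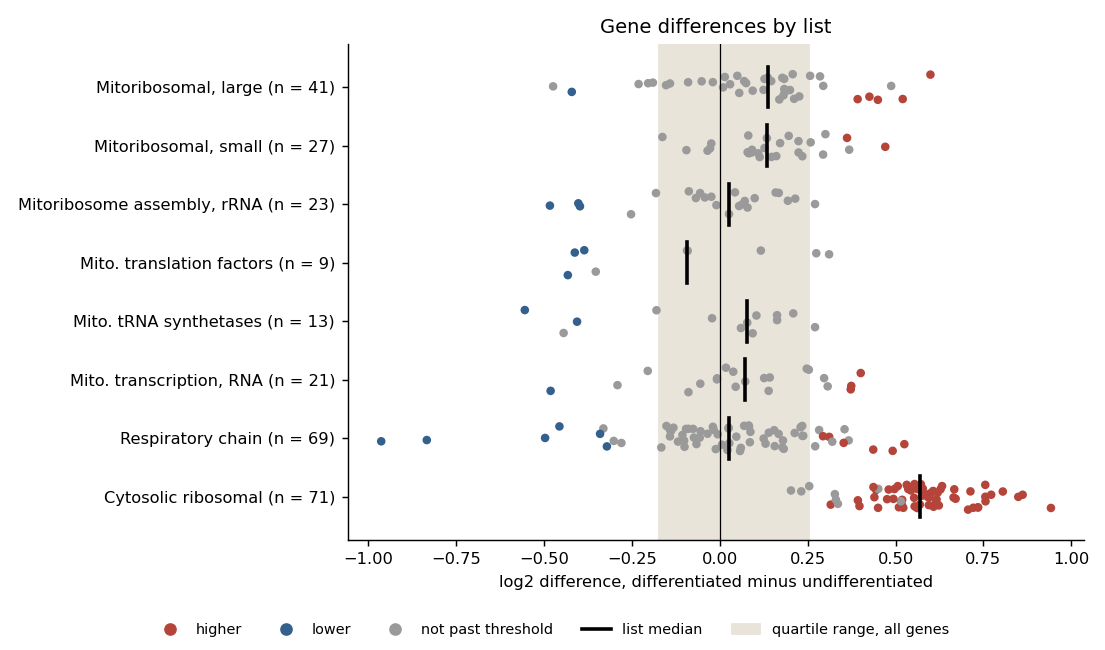
Log2 difference, arrays labelled differentiated minus arrays labelled undifferentiated (x axis), of single genes (points) in 8 lists (y axis), with list medians as black bars; red and blue mark genes called higher and lower, and the shaded band is the quartile range of all genes, -0.17 to 0.25. Both mitoribosomal medians, 0.14 and 0.13, lie inside the band, and the cytosolic ribosomal median, 0.57, lies outside it.

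Genes that act with the mitochondrial ribosome were followed through lists of its partners. Of 6 subunits with names of another kind, 5 were measured and 0 passed, with Aurkaip1 at 0.27 (limma adjusted p = 0.0865), Gadd45gip1 at -0.12 and Chchd1 at 0.20; 1 of them was higher with quantile normalization and 1 without differentiated replicate 3. Among 23 measured genes of assembly and ribosomal RNA modification 0 rose and 3 fell (13% called, against 29.5% of all genes). Grsf1, an RNA-binding protein of mitochondrial RNA granules, measured 8.06, 8.05 and 8.06 in the arrays labelled differentiated, against 8.45, 8.52 and 8.65 in those labelled undifferentiated, and fell by 0.48 ± 0.09 (adjusted p = 0.00217). Ngrn, needed for the large ribosomal RNA, fell by 0.40 ± 0.12 (adjusted p = 0.0281), and Nsun4, which methylates the small ribosomal RNA, by 0.40 ± 0.12 (0.0249). The number that fell was 1 without differentiated replicate 3 and 1 without undifferentiated replicate 1.

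Of 9 measured translation factors, 0 rose and 3 fell (33.3% called, against 29.5% of all genes). Gfm2, which splits the ribosome after termination, measured 6.16, 6.08 and 6.06 in the arrays labelled differentiated, against 6.59, 6.50 and 6.51 in those labelled undifferentiated, and fell by 0.43 ± 0.10 (limma adjusted p = 0.00832). Its partner Mrrf, the ribosome recycling factor, fell by 0.39 ± 0.09 (adjusted p = 0.00949). Taco1, the activator of translation of cytochrome oxidase subunit I, fell by 0.41 ± 0.11 (0.0124). In these 3 genes the groups did not overlap. Tufm, the elongation factor that delivers transfer RNA, differed by 0.31 ± 0.12 (adjusted p = 0.0849) and did not pass.

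Of 13 measured aminoacyl-tRNA synthetases and amidotransferase genes of mitochondria, 0 rose and 2 fell (15.4% called, against 29.5% of all genes). Qrsl1, which makes glutamine on its transfer RNA, fell by 0.55 ± 0.12 (limma adjusted p = 0.00478) and Aars2, which charges alanine, by 0.41 ± 0.10 (0.0109). Rars2, which charges arginine, differed by -0.44 ± 0.15 (0.051) and did not pass. Of 21 measured genes of mitochondrial transcription, DNA maintenance and RNA processing, 3 rose and 1 fell (19% called). Lrpprc, which holds mitochondrial messenger RNAs stable, fell by 0.48 ± 0.11 (0.00804). The genes that rose were Fastk (0.40 ± 0.11), Tbrg4 (0.37 ± 0.10) and Rexo2 (0.37 ± 0.11), all of which act on mitochondrial RNA. The number that rose was 1 without differentiated replicate 2, 0 without undifferentiated replicate 2 and 0 without undifferentiated replicate 3.

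Regulators of mitochondrial gene expression included the largest differences of the lists around the mitochondrial ribosome. Of 10 measured genes, 2 rose and 0 fell (20% called, against 29.5% of all genes), and 4 rose with quantile normalization. Ppargc1a, the coactivator PGC-1 alpha, measured 5.44, 4.67 and 5.22 in the arrays labelled differentiated, against 3.58, 3.91 and 3.98 in those labelled undifferentiated, and rose by 1.29 ± 0.20 (limma adjusted p = 0.00057). Myc, a transcription factor known to raise genes of ribosome and mitochondrial biogenesis, measured 7.39, 7.12 and 7.26 in the differentiated arrays, against 6.47, 6.17 and 6.07 in the undifferentiated arrays, and rose by 1.02 ± 0.13 (adjusted p = 0.00012). In both genes the groups did not overlap. Esrra, a nuclear receptor and partner of the PGC-1 proteins, differed by 0.29 ± 0.10 (adjusted p = 0.0509). Nrf1 and Gabpa, factors known to bind promoters of mitochondrial protein genes, differed by 0.14 ± 0.10 and 0.10 ± 0.12, and Yy1 by 0.01 ± 0.11.

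The promoters of the members were read for the letters that such factors are known to bind. RefSeq promoter sequences of GRCr8 were matched for 54 of the 68 members and for 6 of the 8 called, and the first listed start of a gene was used. The 6 are shown because these members passed the test, each as the 150 bases before the start of the gene, 5′ to 3′, with the capitals marking a searched motif on either strand.
Mrpl23 (chr1:207116780-207116929, plus strand): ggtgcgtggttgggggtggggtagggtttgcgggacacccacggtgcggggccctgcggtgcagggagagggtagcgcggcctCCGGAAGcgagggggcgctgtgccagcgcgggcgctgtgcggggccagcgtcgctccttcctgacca
Mrpl36 (chr1:31795122-31795271, minus strand): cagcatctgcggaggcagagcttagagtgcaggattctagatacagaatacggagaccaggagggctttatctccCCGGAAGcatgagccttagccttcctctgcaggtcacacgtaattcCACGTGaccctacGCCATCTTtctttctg
Mrpl37 (chr5:127074968-127075117, minus strand): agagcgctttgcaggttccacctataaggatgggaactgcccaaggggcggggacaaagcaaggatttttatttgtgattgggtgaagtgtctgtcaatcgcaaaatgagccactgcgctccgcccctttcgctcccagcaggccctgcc
Mrpl51 (chr4:159677838-159677987, plus strand): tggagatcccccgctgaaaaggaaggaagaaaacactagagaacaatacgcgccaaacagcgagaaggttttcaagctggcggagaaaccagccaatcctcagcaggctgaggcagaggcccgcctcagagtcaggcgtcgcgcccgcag
Mrps25 (chr4:126237213-126237362, minus strand): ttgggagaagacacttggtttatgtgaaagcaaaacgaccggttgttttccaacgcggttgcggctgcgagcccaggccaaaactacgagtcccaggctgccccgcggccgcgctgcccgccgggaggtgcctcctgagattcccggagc
Mrps26 (chr3:138222174-138222323, plus strand): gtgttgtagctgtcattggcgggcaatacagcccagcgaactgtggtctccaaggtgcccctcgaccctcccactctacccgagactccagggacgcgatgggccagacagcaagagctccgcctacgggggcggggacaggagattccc

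The motifs were searched on both strands of the 250 bases before the start. The letters bound by Nrf1, searched as GCGC, any base and TGCGC in a row, were found in 7 of 54 members (13%) and in 6.74% of the promoters of 11932 protein-coding genes on the array. CCGGAAG, bound by Gabpa and other ETS factors, was found in 11 (20.4%) and 11.2%. AAGATGGC, bound by Yy1, was found in 3 (5.56%) and 1.79%, and CACGTG, the E-box bound by Myc and others, in 4 (7.41%) and 6.92%. TATAAA was found in 7 (13%) and 11.2%. None of the motifs contains another. Over all 27457 promoters the shares were 4.17%, 7.74%, 1.69%, 5.79% and 13.1% in the same order. These matches describe letters and show no binding.

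Among the 6 promoters shown, that of Mrpl36 held, on either strand, CCGGAAG 75 bases before the start, CACGTG at 29 and AAGATGGC or its complement at 16, and that of Mrpl23 held CCGGAAG at 67. Those of Mrpl37, Mrpl51, Mrps25 and Mrps26 held none of the 5 motifs in the window. Over the 54 members, the median difference was 0.07 in the 7 with the Nrf1 letters and 0.15 in the 47 without, and 0.15 in the 11 with the ETS letters and 0.13 in the 43 without. It was 0.39 in the 3 with the Yy1 letters, Mrpl36 among them, and 0.13 in the 51 without. For the E-box it was 0.14 in 4 and 0.13 in 50, and for TATAAA 0.13 in 7 and 0.13 in 47. With so few members in these classes, the differences between medians were not tested.

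Some members share a start region with a neighbour, and the share among all genes was not counted. Every listed start of a gene was searched here, and the nearest pair of starts was kept. In GRCr8, 17 of the 54 members had a protein-coding gene starting on the opposite strand within 1000 bases upstream. Of these neighbours 14 were measured, 2 rose, 1 fell and 11 did not pass, with a median difference of 0.05. Over all genes 14.7% were higher and 14.9% lower, with a median of 0.06. The members Mrpl46 and Mrps11 were each counted as the other's neighbour. Mrpl46 and Mrps11 start head to head, 234 bases apart, and differed by -0.02 ± 0.14 and 0.17 ± 0.12, without a call in either. Mrpl18 (0.29 ± 0.13, limma adjusted p = 0.117) starts opposite the chaperonin gene Tcp1, which rose by 0.32 ± 0.10 (0.0235). Mrpl49 (-0.05 ± 0.15) starts opposite Fau, which encodes a cytosolic ribosomal protein and rose by 0.43 ± 0.11 (0.0128). Mrps27 (0.22 ± 0.11, adjusted p = 0.163) starts opposite Ptcd2, a gene of mitochondrial RNA processing, which fell by 0.52 ± 0.12 (0.00774). In the last 2 pairs the signs of the partners were opposite.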

How the data were processed

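RNA of 6 arrays was used, 3 in each group, with groups and replicate numbers from the sample titles. The authors deposited log2 values for 29214 probe sets; the base 2 is inferred from their range. Background correction, normalization and software: not given in the sources used here. The arrays' medians lay between 5.05 and 5.13, and the number of arrays limits the precision. Gene symbols came from the platform annotation (15310 with 1 symbol, 323 with several, 13581 not listed), and 99.8% of the first matched the GRCr8 gene table, which changed 0 symbols.

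The test was limma's (version 3.58.1, R 4.3.3; lmFit, eBayes with trend, differentiated minus undifferentiated, no block) and covered 14506 genes, with Benjamini-Hochberg adjustment over all of them at 0.05. The labels leave unstated if replicates are separate cultures; the p-values reflect only the scatter of these arrays, possibly technical. Deviations of arrays with the same number correlated at 0.115, 0.124 and -0.004, so the numbers were not taken as pairs.

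The members, gene lists and naming rule were chosen with earlier results of these data known. Members named with values are up to 8 called in each direction per subunit, the 2 brightest and dimmest of each, the Mrps18 genes, Mrps30, members with several probe sets and, chosen after their values were seen, others named for their role or for groups that do not overlap; from each list the 3 genes with the smallest p and up to 2 called the other way. Tufm, Ndufa10, Nrf1, Gabpa, Yy1, Thy1, the hypoxia list and Adm, which has its smallest p, were added after values were seen. Left out of the respiratory chain list were pseudogenes, Atp5if1, assembly factors and several subunit genes. Among these subunit genes were Cox4i2, Cox6a2, Cox7a1, Cox6b2, Cox7b2 and Cox8b. Lars2 stood in 2 lists. Alternatives are given with the closing results. Python 3.11.15 and matplotlib 3.10.9 made the plots.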

Additional observations from a re-analysis of the deposited data

How the results depend on the processing

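Each count was recomputed under 18 alternatives: other normalizations, choices of probe set and estimates of spread, a filter on dim genes, a replicate block, a threshold of 0.01 and each array left out. No member that was called changed sign, and with an array left out the medians were 0.056 to 0.169 in the large and 0.050 to 0.191 in the small subunit, beside 0.046 to 0.070 over all genes. Without undifferentiated replicate 2 they were 0.071 and 0.050, beside 0.070 over all genes, and the shift relative to all genes was lost. Without differentiated replicate 2 the large subunit median, 0.056, lay close to the 0.046 over all genes, and the small subunit median lay farther above it. The number of members higher, 7 in the fit of all arrays, was 1 without moderation (0 large, 1 small), where 18.9% of all genes were called and Mrps25 and Mrpl51 kept their calls, 3 at a threshold of 0.01 (2 large, 1 small), where 20.4% of all genes were called, and 4 to 7 with an array left out (3 to 5 large, 1 to 3 small), where 24.4% to 27.8% were called. With median centring and with eBayes without the trend, 1 small subunit gene was higher. With the replicate block, 2 members were lower, both of the large subunit, Mrpl51 and Mrpl50 (limma adjusted p = 0.0467); the labels do not say that the numbers pair the arrays, and the block changed no other member's call. With an array left out, 1 member was lower in each fit, in the large subunit, and 0 in the small. The causes of these changes were not tested.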
